A study of Mus musculus with 7 samples.

Results

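The genes described here build and run the primary cilium, and they were taken from a list of 44 genes fixed by symbol. A gene was measured where at least 1 probe set of the array was assigned to it and to no other gene. That held for 41 of the 44, through 72 probe sets, out of 18193 genes and 34945 such probe sets in all. Arl6, Arl13b and Rpgrip1l had no probe set of their own, so their expression was not analysed here and only their promoters were read. Of the 41 genes, 19 had several probe sets, and unless stated otherwise the brightest of them represented the gene, judged by the mean log2 value over the 7 arrays.

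The study hybridised RNA of mouse skin and of a tumour cell line to single-channel Affymetrix arrays. There were 2 arrays of dissected basal cell carcinoma, a skin tumour driven by Hedgehog signalling, and 2 arrays of normal epidermis taken on the day of birth (P0). Another 3 arrays came from PDKC1, a basal cell carcinoma line of mouse, with 1 array each for untreated cells (0 h) and for cells kept with cyclopamine for 6 h and 10 h. Cyclopamine is a plant alkaloid that blocks Smoothened, the signal transducer of the Hedgehog pathway. The sources used here do not give the strain, the genotype, the age of the tumour-bearing mice or the dose of cyclopamine. The epidermis was newborn and the tumours were not labelled so, hence age and tumour cannot be told apart in any difference between them. No label ties the arrays of a tissue to separate animals, so the p-values reflect only how far these samples spread, possibly for technical reasons. With 4 tissue arrays the precision is limited by their number.

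The primary cilium is a single microtubule-based antenna of the cell surface. It is built by intraflagellar transport (IFT), in which IFT-B trains carried by kinesin-2 move outward and IFT-A trains carried by dynein-2 move back. The BBSome, a coat of Bardet-Biedl syndrome proteins, moves membrane receptors through the cilium, and the transition zone at its base acts as a gate. In mammals Hedgehog signalling passes through this organelle: Smoothened enters it when the ligand binds, and the GLI transcription factors are processed there. Cilia are formed by keratinocytes of the developing epidermis and hair follicle and by many stromal cells of the dermis.

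The arrays differed in ways that touch every comparison. The tumours had a median probe set intensity of 118.4 and 128.2, the epidermis arrays of 71.2 and 75.5 and the PDKC1 arrays of 72.4 to 78.3, although the deposited arrays share the same overall scale. The ratio of 3' to 5' signal of the Actb control was 11.3 and 93.1 in the tumours, 3.98 and 2.84 in the epidermis and 1.15 to 1.21 in PDKC1. Of 10 keratinocyte markers 0 were called higher and 5 lower in the tumours (2 and 3 with quantile normalization, 0 and 8 with centring). Among the basal markers Krt5 ran from 26659 to 35513 and Trp63 from 8779 to 13168 over the 7 arrays, Krt14 was lower in the tumours (-1.34 ± 0.35, adjusted p = 0.0309), and Krt15 was at 957.0 in untreated PDKC1 against 13434 to 30783 in the tissues. The markers of differentiated layers Krt1 (-2.48 ± 0.23), Lor (-1.88 ± 0.47), Flg (-2.54 ± 0.22) and Ivl (-5.70 ± 0.24) were also lower in the tumours. Krt10, another such marker, was not called (-0.91 ± 0.29, adjusted p = 0.0582). In untreated PDKC1 Krt1 and Flg were at 28.3 and 3.90. Krt10, Lor and Ivl were at 776.9, 256.0 and 163.6 there, over the median probe set of 78.3. The part of fewer differentiated cells in the results below was not tested. The part of RNA quality and of overall brightness in the results below was not tested, apart from the scaling alternatives given beside them.

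Most cilium genes were higher in the tumours than in newborn epidermis. Of the 41 genes, 26 were called higher, against 16.6% of all 18193 genes, and 3 were called lower, against 12.5% of all genes; 12 were not called. The median log2 difference, tumour minus epidermis, was 1.32 over the cilium genes and 0.09 over all genes. In 32 genes both tumours lay above both epidermis arrays, which held for 35.8% of all genes, and in 5 both lay below, against 29.8%. The 26 higher genes came from all 8 roles into which the list was divided, from IFT subunits to ciliary signalling proteins. The 3 lower genes were Ift20, Rab8a and Kif17.

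**Figure D1:**
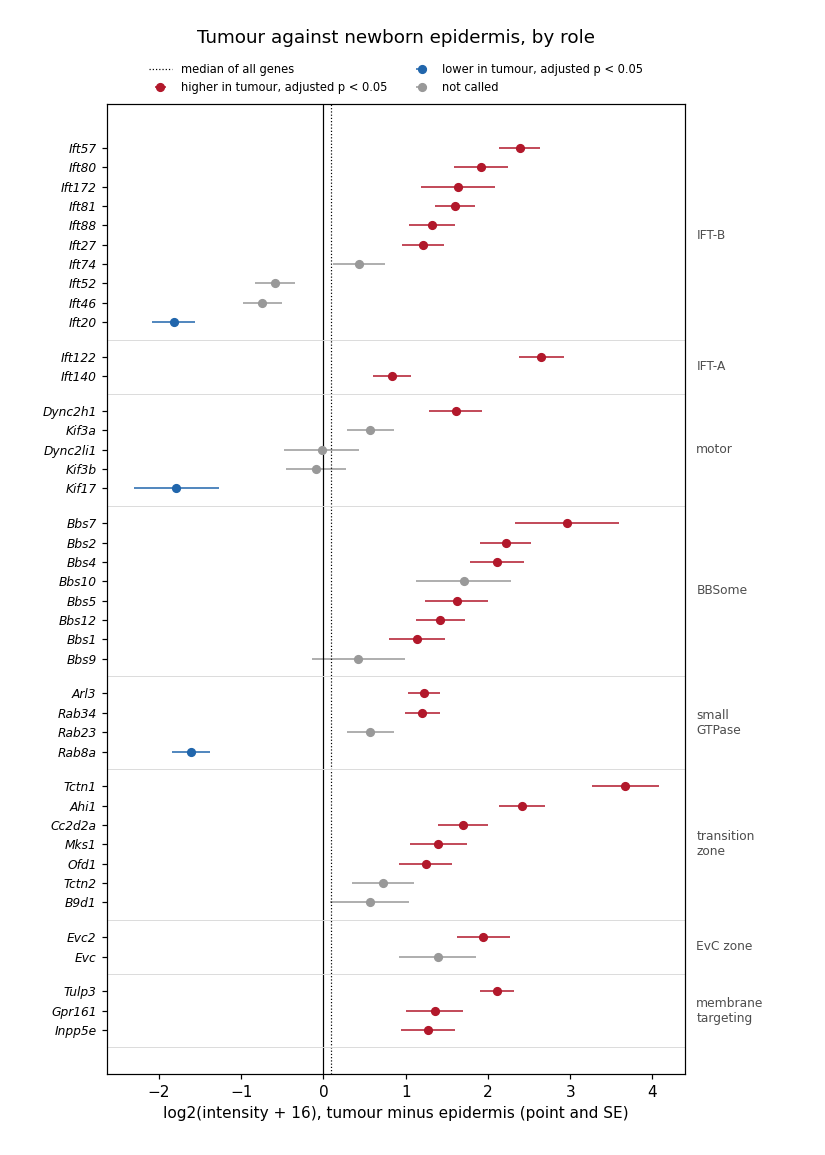
Difference between tumour and newborn epidermis for each of 41 cilium genes, on the log2(intensity + 16) scale, with the SE from the fit over all genes; red and blue points were called, grey points were not, and the dotted line marks the median of all genes at 0.09. The 26 red points lie between 0.83 (Ift140) and 3.67 (Tctn1), and the 3 blue points between -1.82 and -1.61.

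The count depended on the scaling and on the epidermis arrays. With quantile normalization the median of all genes was -0.19 and that of the cilium genes 0.99, with 17 called higher (11.9% of all genes) and 3 lower (14.8%). With each array centred on its median probe set the medians were -0.55 and 0.68, with 12 called higher (8.04% of all genes) and 5 lower (25.9%). The distance between the cilium median and the median of all genes was 1.23 as deposited and 1.19 with quantile normalization; centring, which shifts all genes alike, cannot change it. Without epidermis array 1, 7 were called higher (4.62% of all genes) and 0 lower (2.95%), and without epidermis array 2, 10 higher (5.30%) and 0 lower (3.40%). Without tumour 1, 25 were higher (19.5%) and 5 lower (18.4%), and without tumour 2, 23 higher (17.4%) and 2 lower (14.2%). With all 4 arrays 40.4% of all genes had an unadjusted p under 0.05, as did 4 of the 12 cilium genes that were not called. The calls of Ift57, Ift80, Ift122, Bbs2, Bbs4, Bbs7, Cc2d2a, Tctn1, Ahi1, Evc2, Tulp3 and Ift20 held under every alternative that kept the 4 tissue arrays and tested the gene, and those of Ift57, Ift122, Bbs2, Tctn1, Ahi1 and Tulp3 also with any of the 4 left out.

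The 2 epidermis arrays were not level with each other in these genes. Array 2 exceeded array 1 by a median log2 value of 0.31 over the cilium genes and of 0.02 over all genes. Between the tumours the median difference was -0.00 over the cilium genes and -0.03 over all genes. Bbs7 and Bbs10 showed the widest gaps: Bbs7 was at 4.30 and 52.4 and Bbs10 at 28.6 and 108.7 in epidermis arrays 1 and 2.

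**Figure D2:**
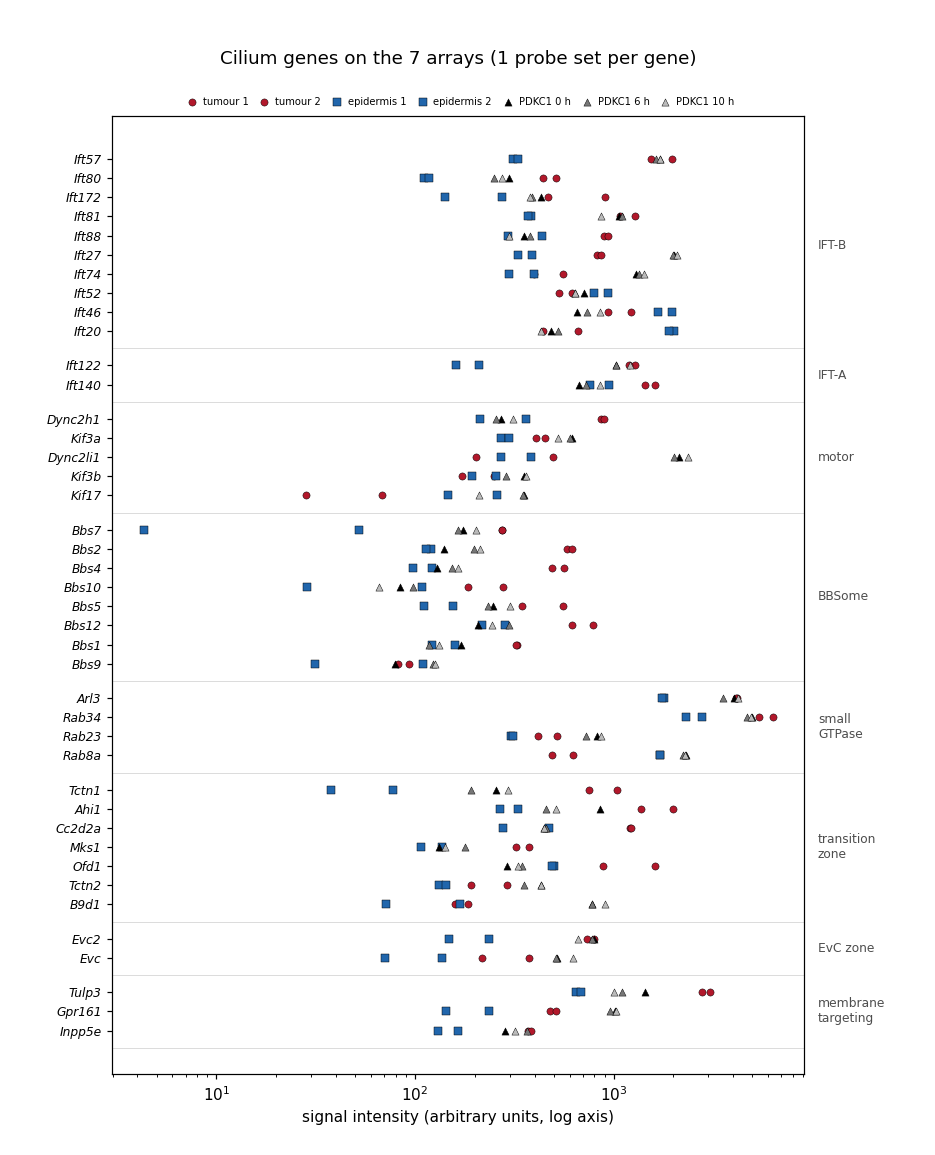
Signal intensity of the probe set standing for each cilium gene on the 7 arrays, on a log axis, grouped by role; red circles are tumours, blue squares newborn epidermis and triangles PDKC1 at 0 h, 6 h and 10 h (black to light grey). In most rows the red circles lie to the right of the blue squares, as in Tctn1 (751.9 and 1046.0 against 37.9 and 77.8), while Ift20, Ift46, Ift52, Rab8a and Kif17 have the opposite order.

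Among the 10 IFT-B genes, which encode the outward-moving trains, 6 were higher and 1 was lower, with a median log2 difference of 1.26. Ift57 had intensities of 1539 and 1979 in tumour against 311.2 and 331.5 in epidermis. Both tumours stood far above both epidermis arrays, and the difference was 2.39 ± 0.25 (SE, 2 arrays per group; adjusted p = 0.00122), or 5.22-fold. Its dimmer probe set was not called (-0.01 ± 0.45), and the mean over both gave 1.19 (adjusted p = 0.0221). Ift88, the gene whose mutation in mice is classically used to remove cilia, was at 892.1 and 942.3 against 294.0 and 434.3. Its groups did not overlap either (1.32 ± 0.28, adjusted p = 0.0146). Ift80 was at 511.1 and 440.2 against 110.4 and 117.5 (1.92 ± 0.33, adjusted p = 0.00638), and its second probe set differed by 2.02 ± 0.46. Ift81, which binds tubulin together with Ift74, was at 1289 and 1083 against 385.5 and 371.5 (1.60 ± 0.24). Ift74 itself was not called, with 396.6 and 558.3 in tumour against 298.7 and 395.4 in epidermis (0.44 ± 0.32, adjusted p = 0.360). The pair of partners therefore had different calls, although the difference between them was not tested. Ift172 was at 902.3 and 467.3 against 141.6 and 275.7 (1.64 ± 0.45, adjusted p = 0.0341). Ift27, a small GTPase-like subunit, was at 825.7 and 862.3 against 386.0 and 328.5 (1.21 ± 0.25, adjusted p = 0.0132). The 3 probe sets of Ift27 disagreed, and with the mean over probe sets Ift27 (0.39, adjusted p = 0.325) and Ift81 (0.79, 0.101) were not called. Ift27, Ift88 and Ift172 had an adjusted p of 0.145, 0.108 and 0.135 with centring, and Ift172 was not called without tumour 1 (0.0737). Of the 6 higher genes all but Ift57 lost the call without an epidermis array, with an adjusted p of 0.0674 to 0.225 without array 1 and 0.0631 to 0.159 without array 2.

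Ift20 went the other way. This subunit also sits at the Golgi, where it helps to send membrane cargo to the cilium. The tumours had 663.0 and 442.4, the epidermis arrays 2023 and 1893. Both tumours lay far below both epidermis arrays, with a difference of -1.82 ± 0.26 (adjusted p = 0.00361); without epidermis array 1 or 2 the adjusted p was 0.0656 and 0.0541. The core subunit genes Ift46 and Ift52 also had both tumours below both epidermis arrays without a call. Ift46 was at 1227 and 939.0 against 1666 and 1957 (-0.74 ± 0.23, adjusted p = 0.0553), and Ift52 at 620.8 and 528.1 against 941.2 and 799.9 (-0.59 ± 0.24, adjusted p = 0.121). Both were called lower with centring (0.00737 and 0.0139) and without tumour 1 (0.00546 and 0.0382).

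Both measured IFT-A genes, which encode the return trains, were higher. Ift122, a core subunit, was at 1281 and 1193 in tumour against 160.1 and 211.1 in epidermis. The groups were far apart (2.65 ± 0.27, adjusted p = 0.00122), a 6.26-fold difference. Its other probe set, at 75.4 and 77.6 against 53.3 and 60.6, was not called (0.34 ± 0.45, adjusted p = 0.632), and the mean over both gave 1.495 (adjusted p = 0.0108). Ift140 was at 1607 and 1441 against 757.3 and 950.7 (0.83 ± 0.23, adjusted p = 0.0354). Its groups did not overlap, but the smaller difference was not called with centring (0.19, adjusted p = 0.571), with quantile normalization (0.0573) or without epidermis array 1 (0.328) or 2 (0.167).

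The 5 motor genes did not move as a group, with 1 higher, 1 lower and a median of -0.02. Dync2h1, the heavy chain of the dynein-2 that drives the return trains, was at 862.0 and 895.6 in tumour against 211.6 and 362.8 in epidermis. The tumours were level with each other and above both epidermis arrays (1.61 ± 0.32, adjusted p = 0.0114); the adjusted p was 0.0553 with centring and 0.125 without epidermis array 1. Its light intermediate chain gene Dync2li1 was at 495.6 and 202.3 against 272.2 and 383.4, so that the tumours lay on either side of the epidermis (-0.02 ± 0.46, adjusted p = 0.979). The kinesin-2 genes Kif3a (0.57 ± 0.29, adjusted p = 0.191) and Kif3b (-0.09 ± 0.37, adjusted p = 0.887), whose products form the motor of the outward trains, were not called. The direction of Kif3a turned with centring (-0.07). Another Kif3a probe set, at 335.3 and 348.3 against 101.1 and 161.7, was called higher (1.31 ± 0.37, adjusted p = 0.0377), and all 4 had both tumours above both epidermis arrays. Kif17, an accessory kinesin-2, was at 68.1 and 28.4 in tumour against 146.5 and 259.0 in epidermis. Its tumours were below both epidermis arrays on this probe set (-1.79 ± 0.52, adjusted p = 0.0417). The other Kif17 probe sets had the tumours above, at 60.5 and 55.1 against 17.3 and 52.7 and at 7.5 and 6.1 against 3.6 and 4.5. With the mean over probe sets Kif17 differed by -0.33 (adjusted p = 0.619), and it was not called without tumour 2 (0.0899), without epidermis array 1 (0.105) or 2 (0.245), or without a variance trend (0.0507).

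BBSome genes were higher in 6 of 8 measured cases and lower in 0 (the other two had an unadjusted p of 0.481 and 0.0227, Bbs9 and Bbs10), with a median of 1.66. Bbs2 was at 582.3 and 618.0 in tumour against 120.2 and 113.3 in epidermis. The replicates were close together and the groups far apart (2.21 ± 0.31, adjusted p = 0.00317). Bbs4 was at 492.0 and 561.9 against 98.2 and 121.7 (2.11 ± 0.33, adjusted p = 0.00465), and all 4 of its probe sets had both tumours above both epidermis arrays; their mean differed by 1.35. Bbs7 was at 273.2 and 273.8 against 4.30 and 52.4 (2.96 ± 0.63, adjusted p = 0.0144). The first of these epidermis values lay under the pseudocount of 16, so the size depends on that constant; without epidermis array 1 the difference was 2.08 (adjusted p = 0.0752), and with the mean over probe sets 1.91 (0.0142). Bbs5 was at 344.5 and 553.9 against 110.4 and 155.5 (1.62 ± 0.38) and Bbs1 at 324.4 and 324.3 against 121.9 and 158.1 (1.14 ± 0.34). The chaperonin-like assembly factor gene Bbs12 was at 783.2 and 618.4 against 218.1 and 285.3 (1.42 ± 0.30). Bbs1 was called by a narrow margin (adjusted p = 0.0474) and lost the call with either scaling and with any array left out (0.0661 to 0.287), while Bbs5 and Bbs12 had 0.0835 and 0.0945 with centring, 0.162 and 0.145 without epidermis array 1 and 0.0905 and 0.0826 without array 2. Bbs5 had 0.115 with quantile normalization and 0.0550 without tumour 2, and Bbs4 had 0.0626 without epidermis array 1. Bbs10, another assembly factor gene, was at 184.8 and 277.6 against 28.6 and 108.7 (1.70 ± 0.58, adjusted p = 0.0688), and its dimmer probe set was called (1.97 ± 0.48, adjusted p = 0.0228). Bbs9 was at 93.2 and 82.1 against 31.5 and 109.1, an overlap, and was not called (0.43 ± 0.57, adjusted p = 0.638).

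Of the 4 measured small GTPase genes 2 were higher and 1 lower, with a median of 0.89. Arl3, which releases lipid-anchored cargo inside the cilium, was at 4200 and 4139 in tumour against 1802 and 1757 in epidermis. Replicates lay close together and the groups were apart (1.22 ± 0.19, adjusted p = 0.00483). Rab34, which acts early in the growth of the ciliary vesicle, was at 6323 and 5426 against 2776 and 2326 (1.20 ± 0.21, adjusted p = 0.00741), and its other probe set differed by 1.66 ± 0.26. With centring the adjusted p was 0.0739 for Arl3 and 0.115 for Rab34, without epidermis array 1 0.0944 and 0.0859, and without array 2 0.0962 and 0.132. Rab8a, which directs vesicles to the ciliary membrane and to other parts of the cell surface, was at 626.5 and 486.9 against 1722 and 1717. Here both tumours were low (-1.61 ± 0.23, adjusted p = 0.00369). The dimmer probe sets of Rab8a did not run together: 1 had tumours at 178.7 and 177.8 against 137.9 and 77.1, and the other 0.90 and 8.70 against 27.7 and 19.3. With the mean over them Rab8a was not called (-0.62, adjusted p = 0.191), nor was it without epidermis array 1 (0.0718) or 2 (0.0679). Rab23, a negative regulator of Hedgehog signalling in the mouse, was not called on its main probe set (0.57 ± 0.29, adjusted p = 0.188; -0.07 with centring), while another, at 411.3 and 660.8 against 111.3 and 192.9, was (1.72 ± 0.40, adjusted p = 0.0188).

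Genes of the transition zone and the centriole beneath it were higher in 5 of 7 measured cases, with a median of 1.40. Tctn1, a tectonic protein gene of the gate, had the largest difference of the 41. The tumours had 751.9 and 1046.0, the epidermis arrays 37.9 and 77.8. Both tumours were more than an order of magnitude above epidermis array 1 (3.67 ± 0.41, adjusted p = 0.00152), a 12.7-fold difference between the means of the log2 values. Ahi1, the mouse counterpart of a Joubert syndrome gene, was at 1373 and 1987 against 329.4 and 267.8 (2.41 ± 0.28, adjusted p = 0.00176; 1.495 with the mean over its probe sets, 0.0406). Cc2d2a was at 1215 and 1218 against 278.5 and 474.5 (1.70 ± 0.31, adjusted p = 0.00795; 0.0965 without epidermis array 1). The tumours were again level with each other. Mks1, a Meckel syndrome gene, was at 321.4 and 372.9 against 107.5 and 137.3 (1.40 ± 0.35, adjusted p = 0.0254). Ofd1, a gene of the distal centriole, was at 887.6 and 1612 against 503.9 and 490.1 (1.24 ± 0.32, adjusted p = 0.0286). Both were not called with centring (0.137 and 0.178), with quantile normalization (0.170 and 0.0846), without epidermis array 1 (0.188 and 0.168) or without array 2 (0.120 and 0.177); Mks1 had 0.0551 without tumour 2. Tctn2 (0.73 ± 0.38, adjusted p = 0.209; -0.05 with quantile normalization) and B9d1 (0.56 ± 0.48, adjusted p = 0.437; -0.17 with quantile normalization and -0.08 with centring) were not called.

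The genes that connect the cilium with Hedgehog signalling came last in the list and were higher in 4 of 5 cases. Evc2, whose product holds Smoothened in a zone near the ciliary base, was at 731.5 and 800.1 in tumour against 234.9 and 148.2 in epidermis. The groups did not overlap (1.94 ± 0.32, adjusted p = 0.00577; 0.0714 without epidermis array 2). Its partner Evc was at 216.5 and 373.0 against 70.4 and 136.9 (1.39 ± 0.47, adjusted p = 0.0657), and was called without tumour 1 (0.0289). Tulp3, the adaptor that brings receptors into the cilium on IFT-A, was at 2774 and 3074 against 648.0 and 684.0. It had the smallest adjusted p of the 41 genes (2.11 ± 0.21, adjusted p = 0.00108; 1.25 with the mean over its probe sets, 0.0146). Inpp5e, a phosphatase that sets the lipid makeup of the ciliary membrane, was at 370.0 and 383.2 against 163.7 and 130.5 (1.27 ± 0.33, adjusted p = 0.0286). Gpr161, a receptor carried in by Tulp3 that restrains Hedgehog signalling, was at 480.0 and 512.6 against 142.6 and 236.6 (1.36 ± 0.35, adjusted p = 0.0276). Its second probe set ran the opposite way, at 4.30 and 4.40 against 43.4 and 60.0, and in the fit over all probe sets it was called lower (-1.72 ± 0.43, adjusted p = 0.0244). With the mean over both the difference of Gpr161 reversed to -0.18 (adjusted p = 0.754). Inpp5e and Gpr161 were not called with centring (0.193 and 0.152), with quantile normalization (0.219 and 0.124), without epidermis array 1 (0.139 and 0.226) or without array 2 (0.210 and 0.0821).

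Across all 72 probe sets of these genes 32 were called higher, against 16.6% of all probe sets, and 4 lower, against 10.7%. Of the 12 higher genes with several probe sets, 3 (Ift80, Bbs4 and Rab34) had more than 1 probe set called higher. Gpr161 was the 1 gene of 19 with calls in opposite directions, and in 3 genes (Gpr161, Kif17 and Rab8a) probe sets had groups that did not overlap in opposite directions.

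The promoters of 8 members held a match to a known sequence, the X-box. The X-box is the element bound by RFX transcription factors, long known as regulators of ciliary genes. RefSeq promoter sequences of GRCm38.p6, from 250 bases before to 50 bases after a transcript start, were present for 40 of the 44 listed genes and for 27025 genes in all. Read on either strand as GTNNCC and GNAAC with 3 bases of any kind between them, N being any base, the X-box occurred in 8 of the 40, or 20%, and in 2.49% of all genes (3.06% of the 14452 measured genes). Of the 23 members with a promoter that were called higher 7 held a match, and of the 14 other measured members 1 did, Tctn2; the 3 without a probe set held 0. In the 250 bases before the start 4 of 40 and 2.07% of all genes held it. In that shorter window 3 of the 23 higher members and 1 of the 14 other measured members did. The share among all genes called higher in the tumours was not counted. The GLI element GACCACCCA occurred in 0 of the 40 and in 0.289% of all genes, on either strand. A match is a run of letters in this window and does not show binding. The matched letters of these 8 members are set out below. Capitals mark the matched bases, written along the strand of the gene. Of these, Bbs7, Tctn1, Ahi1 and Mks1 match on both strands, since the element is nearly its own reverse complement.
Bbs7: GTTGCCTTGGAAAC
Tctn1: GTTGCCCGGGCAAC
Ahi1: GTTACCTAGGCAAC
Mks1: GTTGCCAGGGGAAC
Bbs4: GTCGCCCGGGAAAC
Ift57: GTTGCCGTGGTGAC
Bbs1: GTTGCCAAGGCGAC
Tctn2: GTTACCATGGCTAC

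Counted from the transcript start of the promoter read, the matches began 121 bases before it in Bbs7, 87 in Ift57, 62 in Tctn2 and 24 in Mks1. In Tctn1, Ahi1, Bbs4 and Bbs1 they lay after it, from base 37, 22, 24 and 2. That transcript start is not always the edge of the annotated gene, and in Bbs7 and Mks1, among others, it lay inside the gene. The upstream surroundings are printed for Bbs7 and Ift57, the called genes whose match lay outside the annotated gene. The Bbs7 stretch is chr3:36613493-36613553 on the minus strand and the Ift57 stretch chr16:49699164-49699263 on the plus strand (GRCm38.p6). Both run toward the gene, with the counted X-box match in capitals. Other spacings of the element were not searched. The Ift57 stretch also holds both parts with 2 bases between them, left in lower case and not counted.
Bbs7: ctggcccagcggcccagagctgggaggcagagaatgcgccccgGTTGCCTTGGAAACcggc
Ift57: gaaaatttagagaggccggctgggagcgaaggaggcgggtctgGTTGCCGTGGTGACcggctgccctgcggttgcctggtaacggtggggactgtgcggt

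Of the 6 RFX genes themselves 4 were called higher in the tumours and 0 lower, at a median of 1.28 (3 higher and 1.03 with quantile normalization, 2 higher and 0.64 with centring); the other two, Rfx1 and Rfx4, were not called (adjusted p = 0.220 and 0.826). Rfx3, a regulator of ciliary genes in several tissues, was at 702.4 and 940.1 in tumour against 127.1 and 150.3 in epidermis. Its groups were far apart (2.43 ± 0.31, adjusted p = 0.00241). Rfx2 differed by 1.86 ± 0.41, Rfx5, which is better known for control of MHC class II genes, by 2.11 ± 0.26, and Rfx7 by 0.64 ± 0.19. The part of RFX factors in the cilium gene differences was not tested.

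A list of other ciliary genes was read in the same fit. Of 36 measured, from a list of 43, 16 were called higher (16.6% of all genes) and 1 lower (12.5%), and the median was 0.74 as deposited. Quantile normalization gave 8 higher (11.9% of all genes), 1 lower (14.8%) and a median of 0.52. Centring gave 5 higher (8.04% of all genes), 4 lower (25.9%) and a median of 0.10. These shares of all genes apply to every list read in this fit. Wdr35 (2.22 ± 0.28) and Wdr19 (1.99 ± 0.46) encode other IFT-A subunits, Cep290 (2.06 ± 0.35) a transition zone protein and Rpgr (2.14 ± 0.29) a protein that binds there. The lower gene was the somatostatin receptor gene Sstr3, named because it was the 1 lower gene (-1.82 ± 0.55, adjusted p = 0.0471). Of 8 genes of ciliary disassembly and centriole capping 3 were higher and 1 lower, and the median of 0.28 turned negative after quantile normalization (-0.24) and centring (-0.36). Ccp110, which caps the mother centriole and holds back cilium growth, was at 880.8 and 1685 against 111.4 and 102.1 (3.33 ± 0.37, adjusted p = 0.00157), its partner Cep97 differed by 1.59 ± 0.30, and the mitotic kinase gene Plk1 by -1.81 ± 0.46. Of 15 genes of motile cilia 3 were higher and 0 lower, a share near the 16.6% of all genes, with 1 higher under either scaling, and the median of 0.23 likewise turned negative (-0.06 and -0.41); 12 had an adjusted p from 0.204 to 0.868. Foxj1, the master regulator of motile cilia, was at 29.9 and 6.90 in tumour against 44.8 and 15.7 in epidermis, all of them under the median probe set. Tekt2, a tektin of axonemal microtubules, was at 937.6 and 953.3 against 104.2 and 158.9 (2.73 ± 0.32).

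Stromal markers differed between the same groups. Of 9 fibroblast markers 8 were higher in the tumours, and their summed intensity was 75603 and 90430 in the tumours, 20646 and 16403 in the epidermis and 22789 in untreated PDKC1, where 22198 of the sum came from Vim. In untreated PDKC1 the fibroblast receptor gene Pdgfra was at 6.90, Lum at 13.2, Pdgfrb at 26.3, Col3a1 at 33.7, Col1a1 at 46.9 and Thy1 at 77.8. Col1a2 at 267.6 and Dcn at 118.7 lay over the median probe set of 78.3 on that array. Of 6 endothelial markers 2 were higher, with sums of 1125 and 908.3 in tumour against 321.2 and 332.9 in epidermis. Of 5 mast cell markers 3 were higher (sums 4139 and 4658 against 1034 and 717.6), of 7 skeletal muscle markers 3 (sums 14950.3 and 3011 against 462.7 and 440.9), of 6 macrophage markers 0 were higher and 1 lower (sums 8247 and 10298 against 8438 and 7005). Schwann cell (2 of 3 higher, sums 1444 and 700.6 against 198.3 and 158.7), adipocyte (2 of 4, 881.6 and 483.3 against 215.8 and 169.1) and melanocyte markers (1 of 5 higher and 1 lower, 12125 and 14276 against 11469 and 13642) completed the check. The part of these cells in the cilium gene differences was not tested, and in whole tissue a change in cell numbers and a change in RNA per cell cannot be told apart. With quantile normalization and with centring the fibroblast markers had 7 and 6 higher, the adipocyte markers 0 and 0 (1 lower with centring), the macrophage markers 1 and 0 higher and 2 and 3 lower, and the melanocyte markers 1 and 3 lower; higher counts of the endothelial, mast cell, muscle and Schwann cell markers were as above under both. Mitosis genes had 0 of 11 higher and 1 lower, or 3 and 5 lower under these scalings (sums 7815 and 19108 against 9456 and 12441).

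The Hedgehog genes that act through the cilium gave a reference in the same arrays. Of 8 genes 7 were higher and 0 lower (6 higher with quantile normalization, 5 with centring), with a median of 1.62. Gli1, the transcription factor and target, was at 2192 and 1933 in tumour against 190.2 and 292.9 in epidermis.

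The same ciliary genes were read in PDKC1 cells. All 41 genes exceeded the median probe set on their brightest PDKC1 array, as did 11566 of all 18193 genes. Bbs10, at 65.6 to 98.2, passed close to the PDKC1 medians of 72.4 to 78.3, so passing does not establish expression. In untreated cells 29 of 41 genes lay above both epidermis arrays, which held for 40.1% of all genes. Of the 26 genes higher in tumour 19 did so. These 26 had been called against the same epidermis arrays, so that count is not separate evidence. Over the 41 genes the median log2 difference of untreated PDKC1 from the epidermis mean was 0.97, and 0.68 with quantile normalization and 0.89 with centring, against -0.06, -0.12 and -0.14 over all genes. The difference from the tumour mean had a median of -0.27 (-0.19 over all genes). It was -0.21 with quantile normalization (0.03 over all genes) and turned to 0.30 with centring (0.37 over all genes). Each PDKC1 condition is 1 array made from 2 ug of RNA, while the tissue arrays were made from 100 ng, so the line and the labelling cannot be told apart and no test was made.

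Individual genes divided the line from the tumours in either direction. Among 40 genes over the median probe set in untreated PDKC1 or a tumour, 6 were at least 2-fold above both tumours (16.7% of all genes) and 11 at least 2-fold below both (27.2%), shares close to those of all genes. With centring the counts were 10 (28.5% of all genes) and 4 (18.4%). Those above were Dync2li1 (2126 against 495.6 and 202.3), B9d1 (777.8 against 185.3 and 159.0), Rab8a (2321 against 626.5 and 486.9), Ift27 (2011 against 825.7 and 862.3), Ift74 (1295 against 396.6 and 558.3) and Kif17 (355.6 against 68.1 and 28.4). Rab8a and Kif17, low in the tumours, were above both epidermis arrays in the line, whereas Ift20 was at 484.9, within the range of the tumours. Those below were Ift88, Ift140, Dync2h1, Bbs2, Bbs4, Bbs10, Bbs12, Mks1, Cc2d2a, Tctn1 and Ofd1. Bbs2 was at 140.0 in the line against 582.3 and 618.0, close to the epidermis values of 120.2 and 113.3. Ofd1 was at 291.9 against 887.6 and 1612, below the epidermis as well. Ift57 (1715), Ift81 (1062), Arl3 (4054) and Evc2 (800.1) were close to their tumour values.

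Probe sets of the same gene placed the line differently against the tumours. Ift122 was at 1025 in untreated PDKC1 and 1281 and 1193 in the tumours on its main probe set, but at 554.1 against 75.4 and 77.6 on the other. Rab23 was at 601.8 against 27.0 and 45.1 on 1 probe set and at 649.5 against 411.3 and 660.8 on another. Ahi1 was at 857.4 against 1373 and 1987 on its main probe set and at 235.2 against 20.6 and 44.9 on the other. In each of these genes 1 probe set was dim in all 4 tissue arrays and bright in the line. Some genes past 2-fold on the main probe set were not so on another. Rab8a was at 116.3 against 178.7 and 177.8 on a dimmer probe set, below both tumours. Bbs4 was at 133.6 against 218.2 and 137.1 on another, and Bbs10 at 74.3 against 101.4 and 93.9. The Actb ratio of 3' to 5' signal differed between the same arrays, as given above, and its part was not tested.

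**Figure D3:**
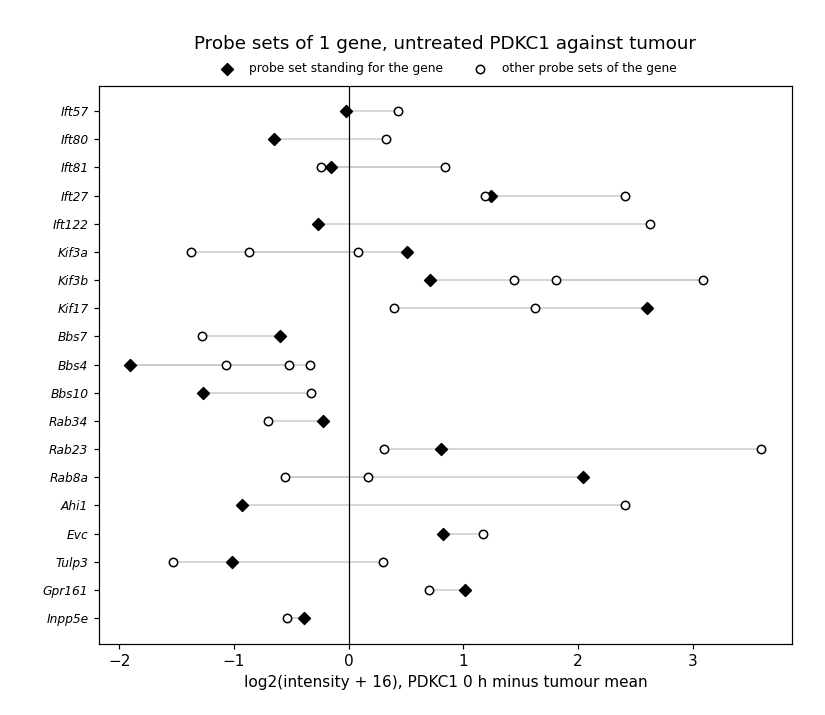
Log2 difference of untreated PDKC1 from the tumour mean for every probe set of the 19 cilium genes that had several; diamonds stand for the gene in the other results and lines join probe sets of a gene. In Ift122 the probe sets lie at -0.27 and 2.62 and in Rab23 between 0.31 and 3.59.

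The cilium genes stayed nearly level over 10 h with cyclopamine, in an experiment without replicates. The series holds no untreated array at 6 h or 10 h, so cyclopamine and time in culture cannot be told apart. Of the 41 genes 0 were at least 2-fold lower at both times (1.01% of all 11566 genes over the level filter) and 0 at least 2-fold higher (0.916%). A count of 0 among 41 lies near those backgrounds. Within 1.5-fold of 0 h at both times were 39 of 41, against 82.6% of all genes. The median log2 change was -0.03 at 6 h and 0.05 at 10 h, against -0.02 and -0.01 over all genes. On the same arrays Gli1 went from 841.9 at 0 h to 193.2 and 189.6, and Ptch1, the Hedgehog receptor and target, from 2185 to 686.2 and 549.5.

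On the probe sets standing for the genes, Ahi1 was the cilium gene that was at least 1.5-fold lower at both times (2.84% of all genes were), and 0 were 1.5-fold higher (2.55%). It was at 857.4 at 0 h, 455.6 at 6 h and 512.0 at 10 h, log2 changes of -0.89 and -0.73. Both treated arrays remained above the epidermis values of 329.4 and 267.8. Its other probe set was at 235.2, 145.8 and 242.1 and did not keep the change at 10 h. A dimmer Kif3b probe set was at 239.0, 492.0 and 369.2, at least 1.5-fold higher at both times. The main Kif3b probe set, at 351.8, 287.6 and 361.3, did not share that change, nor did the remaining ones. Tulp3 was at 1438, 1108 and 1008 (-0.37 and -0.51), and Bbs2 at 140.0, 197.5 and 211.7 (0.45 and 0.55), neither reaching 1.5-fold at both. Among the probe sets standing for the genes, Bbs9 had the largest rise at each time, at 79.5, 122.9 and 126.1 (0.54 and 0.57). Its log2 changes, taken with the pseudocount of 16, lay just under 1.5-fold. The intensities without that constant lay just over 1.5-fold at both times, so the 1.5-fold counts depend on it for Bbs9. Kif17 was at 355.6, 351.5 and 211.1, a lower value at 10 h alone. Ift88 was at 353.2, 380.5 and 295.7, Dync2h1 at 270.3, 254.6 and 313.2 and Gpr161 at 1017, 964.3 and 1030.3. With 1 array per time the spread of these values is unknown.

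**Figure D4:**
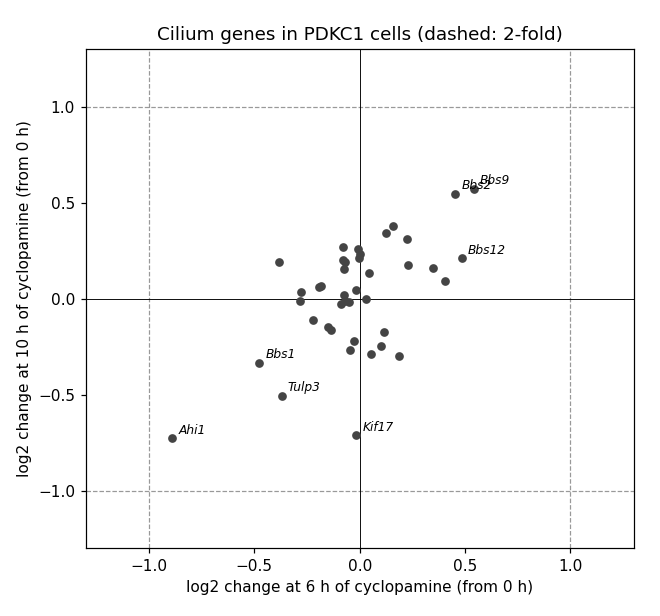
Log2 change of 41 cilium genes in PDKC1 at 6 h (horizontal) and 10 h (vertical) of cyclopamine from the untreated array, 1 array per time; dashed lines mark 2-fold. All points lie inside the dashed lines, and Ahi1 lies farthest toward lower values, at -0.89 and -0.73.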

How the data were processed

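The values are intensities on a linear scale, 1 for each probe set, which the authors deposited; the sources used here do not give their summary software or genome build. Per the labels, biotinylated cRNA was made from 100 ng (tissue) or 2 ug (PDKC1) of RNA. The mean of each array without its lowest and highest 2% of probe sets was 500.0 units, and no further normalization was applied. Of 45101 probe sets, those left out were 64 controls, 932 that name several genes and 9160 that name none. Values were taken as log2(intensity + 16). Tumour and epidermis (2 arrays each) were fitted with limma (version 3.58.1, R 4.3.3; lmFit, then eBayes with a variance trend; two-sided). P-values were adjusted by Benjamini-Hochberg across 18193 genes, and a gene was called where that gave less than 0.05. A second fit used all 34945 probe sets. The fit was tested on simulated data. PDKC1 arrays were compared by fold without a test, among genes whose brightest array exceeded that array's median probe set. Motifs were counted by exact letters. Genes given in full were every called member, the brightest of a role without a call, members with opposing probe sets, PDKC1 members past 1.5-fold at both times and those past 2-fold from both tumours; other lists gave up to 4 called genes. The members and lists were chosen with earlier results of these data known. The replicate numbers share no stated source, so no block was used. Alternatives changed 1 choice at a time: scaling, a pseudocount of 4 or 64, leaving out features under the 40th percentile, the mean of probe sets, the variance trend, a replicate block, all 7 arrays in 1 fit, and each tissue array left out.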

Additional observations from a re-analysis of the deposited data

How the results depend on the processing

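The cilium genes called higher (26 in all) numbered 17 with quantile normalization, 12 with centring and 7 to 25 with a tissue array left out; those called lower (3) numbered 5 with centring, 5 with all 7 arrays, 1 with the mean of probe sets and 0 to 5 with an array left out. For probe sets (32 higher, 4 lower) the counts were 18 higher with quantile normalization, 13 higher and 7 lower with centring, and 7 to 29 higher and 0 to 5 lower with an array left out. The median difference of 1.32 was 0.99 with quantile normalization, 0.68 with centring and 1.24 to 1.55 with an array left out. The replicate block gave 26 higher and 3 lower, losing Ift140 and Bbs1 and adding Bbs10 and Evc. Over genes the deviations of same-numbered arrays had a correlation of -0.00. With 2 arrays per tissue this value cannot decide whether the numbers pair the samples. In PDKC1, 1 gene was lower at 1.5-fold in place of 0 at 2-fold, and with centring 10 lay above and 4 below both tumours. The X-box count was 4 within 250 bases before the start. Directions reversed in genes that were not called: Ift74 (-0.029 with quantile normalization, -0.20 with centring), Bbs9 (-0.13, -0.22, and -0.27 to 1.12 with an array left out), B9d1 (-0.17, -0.077), Tctn2 (-0.053 with quantile normalization), Kif3a (-0.074) and Rab23 (-0.070) with centring, and, with an array left out, Kif3b (-0.34 to 0.16) and Dync2li1 (-0.64 to 0.59), positive without tumour 2 or epidermis array 2. Gpr161 reversed with the mean of probe sets (-0.18). The cause was not tested. In the pseudocount alternatives 26 were higher and 3 lower. Detection calls were not used here, so dim probe sets have no stated lower limit.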
